A study of Mus musculus with 8 samples.

Results

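The 9 genes described here carry the MHC class I presentation pathway from the proteasome to the cell surface: the heavy chains H2-K1 and H2-D1, the light chain B2m, the transporter genes Tap1 and Tap2, the loading factor Tapbp, the immunoproteasome subunits Psmb8 and Psmb9, and the transactivator Nlrc5. They were chosen by name for this pathway, with earlier results of these data known, and all 9 were among the 46078 gene IDs of the count tables. Reads of RNA-seq libraries from female mouse embryonic fibroblasts (MEFs), a cell type grown from embryos, had been sorted by parental allele, 129S1/SvImJ (129) against CAST/EiJ (CAST), by the positions at which these strains differ. The labels name these strains as the parents of the cells, whereas in the methods the X chromosome sorted as 129 came from 129Sv4/Jae. Of 8 samples, 2 were WT, 2 were XiΔXist, which lack Xist on the inactive X chromosome (Xi), 2 were XiΔXist transduced with a scrambled control hairpin (XiΔXist shSCR), and 2 were XiΔXist transduced with hairpins against the transcription factor YY1 (XiΔXist shYY1). The 129 X chromosome is the Xi in all 4 groups. None of the 9 genes is X-linked.

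The lines were clonal, so a difference between WT and XiΔXist cells is also a difference between clones. The shYY1 pool combined cells with different hairpins, and both hairpin pools were made of lentivirus-transduced, puromycin-selected cells. The untreated libraries had been sequenced with shorter paired reads than the hairpin libraries. The authors had merged the 2 samples of each group, so each group was 1 pool without a spread between replicates. All intervals below cover counting error only. Comparisons of reads between 2 pools compare those pools and not the conditions.

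In the class I pathway, proteasomes cut cytosolic proteins into peptides, and interferon exchanges their standard catalytic subunits for Psmb8 and Psmb9. The Tap1-Tap2 transporter moves the peptides into the endoplasmic reticulum, where tapasin, the product of Tapbp, helps to load them on a heavy chain bound to B2m. Nlrc5 activates the promoters of class I genes, and fibroblasts express the pathway at a low level until interferon raises it.

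The pools held 24310035 (WT), 28329701 (XiΔXist), 2393545 (shSCR) and 2504345 (shYY1) allelic reads. A count of 3 reads, taken as the floor, corresponded to 0.123, 0.106, 1.25 and 1.20 CPM, the reads of a gene per 1000000 allelic reads of its pool. Xist had 1456 CPM in WT and 0.741 CPM in XiΔXist, and the hairpin pools held 0 (shSCR) and 6 (shYY1) reads of it. Yy1 had 99.02 CPM in shSCR and 36.7 CPM in shYY1. The fibroblast label was borne out by Vim, Col1a2 and Fn1, and 12 fibroblast markers summed to between 3871 and 9330 CPM in a pool. Lum was at 0 reads in both hairpin pools and Dcn at 0 in shSCR. In the untreated pools 12 leukocyte markers summed to 1.11 and 0.918 CPM and 4 epithelial markers to 0.658 and 0.141 CPM. The 5 endothelial markers summed to 2.96 and 2.19 CPM, with Kdr at 55 reads in WT and 0 in XiΔXist, and Cdh5 at 12 and 47.

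Promoter sequence was examined first, because class I genes are known to respond together through shared promoter elements. RefSeq promoters (GRCm38.p6) were found for 7 of the 9 genes. Tap2 and Nlrc5 had no entry. The 180 bases before the start are shown for the heavy chains, whose promoters are near copies of each other, for B2m, and for Psmb9. They are written from 5′ to 3′ on the strand of the gene. Capitals mark matches, on either strand, to GAAANN followed by GAAA, or its short form GAANNGAAA (interferon-stimulated response element), GGGNNTTCC (NF-kB site), TGACG (core of the X2 element) and CCAAT (the site of NF-Y).
H2-K1: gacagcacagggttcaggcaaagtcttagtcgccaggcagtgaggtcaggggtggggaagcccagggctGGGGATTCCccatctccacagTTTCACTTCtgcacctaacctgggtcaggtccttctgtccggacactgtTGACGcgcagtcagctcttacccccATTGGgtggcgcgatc
H2-D1: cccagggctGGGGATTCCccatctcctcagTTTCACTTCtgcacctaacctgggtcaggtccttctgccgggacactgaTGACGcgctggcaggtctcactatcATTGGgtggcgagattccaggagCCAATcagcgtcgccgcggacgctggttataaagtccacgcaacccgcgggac
B2m: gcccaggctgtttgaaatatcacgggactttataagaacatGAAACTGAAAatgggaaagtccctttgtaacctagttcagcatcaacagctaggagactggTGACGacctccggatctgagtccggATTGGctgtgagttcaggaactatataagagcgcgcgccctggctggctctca
Psmb9: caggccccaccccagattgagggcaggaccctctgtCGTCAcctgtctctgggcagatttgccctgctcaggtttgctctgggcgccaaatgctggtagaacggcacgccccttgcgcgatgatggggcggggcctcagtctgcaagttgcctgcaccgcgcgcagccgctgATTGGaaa
These stretches lie at chr17:34000348-34000527 (H2-K1, minus strand), chr17:35262914-35263093 (H2-D1, plus strand), chr2:122147507-122147686 (B2m, plus strand) and chr17:34187331-34187510 (Psmb9, minus strand).

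Both heavy chain promoters held the same order of matches: an NF-kB site, the short interferon element, the X2 core and a CCAAT box. Over 190 bases aligned without gaps, 166 (87.4%) were identical. B2m held the full interferon element, the X2 core and a CCAAT box, and no NF-kB match. Tap1 and Psmb9 held the X2 core and a CCAAT box. Their windows overlap on opposite strands, and these matches are the same bases, so they are 1 X2 core and 1 CCAAT box. Tapbp held CCAAT only, and Psmb8 held none of the motifs. In the 250 bases before the start of all 32851 promoters, the full interferon element occurred in 2.98%, its short form in 6.31%, the NF-kB site in 4.98%, the X2 core in 17.8% and CCAAT in 33.8%. These matches describe the letters in the window.

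The levels of the 9 genes spanned a wide range. A level here counts only reads over a strain difference, so levels are compared between pools for 1 gene and not between genes. In these bulk samples fewer expressing cells and less RNA per cell cannot be told apart. Gene positions are those of GENCODE in GRCm38. At least 50 reads were found for 3 members in each untreated pool and 2 in each hairpin pool.

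**Figure D1:**
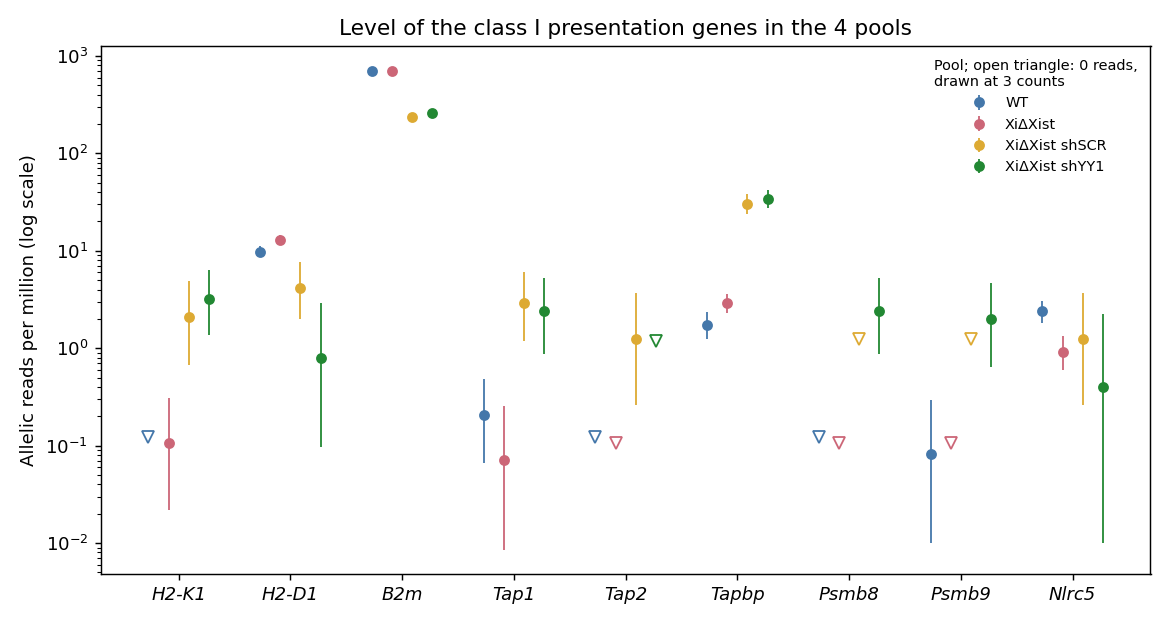
Level in CPM (log axis) of each class I gene in the 4 pools; points are pools, lines are exact 95% Poisson intervals, and open triangles mark 0 reads, drawn at the floor of 3 counts. B2m is higher in the untreated than in the hairpin pools, Tapbp is the reverse, and Psmb8 has reads in the shYY1 pool only (6 reads).

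Of the heavy chains, H2-K1 (chr17:33996017-34000347, minus strand) had 0 reads in WT and 3 in XiΔXist, against 5 with shSCR and 8 with shYY1. This classical heavy chain was thus near the floor in the untreated pools, and the 2.09 CPM of shSCR and 3.19 CPM of shYY1 overlapped in their intervals (0.678 to 4.87 and 1.38 to 6.29). H2-D1 (chr17:35262730-35267499, plus strand), the other classical heavy chain, had 238 reads (9.79 CPM) in WT, 369 (13.0 CPM) in XiΔXist, 10 (4.18 CPM) in shSCR and 2 (0.799 CPM) in shYY1. The untreated pools were above the hairpin pools.

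The heavy chain counts carry a limit from sequence similarity. The longest transcripts of H2-K1 and H2-D1 were 91.2% identical over 1049 aligned bases. Of windows of 50 bases, 8.11% of the H2-K1 transcript and 14.3% of the H2-D1 transcript occurred unchanged in transcripts of other genes, against 0% and 1.79% of windows of 150 bases. The same shares were 0% for B2m, Psmb9 and Nlrc5 at both lengths. Tapbp shared 21.0% of its 50-base windows and overlaps exons of Zbtb22 on the same strand. Tap1 and Psmb9, on opposite strands, share 212 exon bases. The use of strand in counting was not given in the sources used here. The part that lost or misplaced reads have in the heavy chain values was not tested.

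B2m (chr2:122147686-122153083, plus strand), the light chain of every class I molecule, had 17204 reads (708 CPM) in WT and 19814 (699 CPM) in XiΔXist. It had 561 reads (234 CPM) in shSCR and 653 (261 CPM) in shYY1. The level was alike within each pair of pools sequenced the same way and lower in the hairpin pools.

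Of the loading genes, Tapbp (chr17:33915899-33929292, plus strand) had 42 reads (1.73 CPM) in WT, 82 (2.89 CPM) in XiΔXist, 73 (30.5 CPM) in shSCR and 86 (34.3 CPM) in shYY1. It was high in the hairpin pools, the reverse of B2m. Tap1 (chr17:34187553-34197225, plus strand) had 5, 2, 7 and 6 reads in the same order of pools. Tap2 (chr17:34203527-34216321, plus strand) had 3 reads in shSCR and 0 in the other pools.

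The immunoproteasome subunits were at or near the floor. Psmb8 (chr17:34197721-34201454, plus strand) had 0 reads in WT, XiΔXist and shSCR and 6 (2.40 CPM) in shYY1. Psmb9 (chr17:34181987-34187764, minus strand) had 2 reads in WT and 5 (2.00 CPM) in shYY1, and 0 in both other pools. Nlrc5 (chr8:94434356-94527272, plus strand) had 58 reads (2.39 CPM) in WT, 26 (0.918 CPM) in XiΔXist, 3 in shSCR and 1 in shYY1. Its interval in WT (1.81 to 3.08 CPM) lay above that in XiΔXist (0.600 to 1.34 CPM) and overlapped those of the hairpin pools.

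The second question was from which allele these reads came. H2-D1 was read from both alleles, and B2m, Tapbp and Nlrc5 almost wholly from the 129 allele. H2-K1, Tap1, Tap2, Psmb8 and Psmb9 had no CAST read, but too few reads for a narrow limit. The most in a pool, 8 reads of H2-K1 in shYY1, allow a CAST share of up to 32.4% by the Wilson interval. CAST reads of B2m were 34 of 17204 in WT and 27 of 19814 in XiΔXist, and 0 of 561 and 1 of 653 in shSCR and shYY1. Its 129 share was 99.8% (Wilson 95% interval 99.7 to 99.9) in WT. Tapbp had no CAST read in any pool, and 0 of 82 in XiΔXist allows a CAST share of up to 3.66% by the limit of 3 counts and 4.48% by the Wilson interval. Nlrc5 had none among 58 reads in WT, which allows up to 5.17% and 6.21% by the same limits.

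For 7 of these genes the neighbouring genes were read almost wholly from the 129 allele. Tapbp, H2-K1, Psmb9, Tap1, Psmb8 and Tap2 lie together on chromosome 17, and from 2.5 Mb before H2-D1 as far as Ppt2 genes were read almost wholly from 129. The 30 protein-coding non-member genes of that stretch with at least 20 reads in the untreated pools together had 25661 129 and 17 CAST reads in WT (99.9% 129). In shSCR they had 2992 and 2. Hnrnpm alone had 5241 129 reads and 0 CAST reads in the untreated pools, and Brd2 had 1830 and 0.

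The balance changed inside the MHC. Ppt2 (chr17:34616662-34628510) had 34 129 and 0 CAST reads in the untreated pools, and the next gene tested, Stk19 (chr17:34823993-34836945), had 16 and 14. The 195483 bases between them separate H2-K1 and the processing genes from H2-D1. The 30 other genes from there to 2.5 Mb past H2-D1 had 9016 129 and 8073 CAST reads in WT, a 129 share of 52.8% (52.0 to 53.5). In shYY1 they had 1686 and 2037. The exception was Olfr99, with 40 and 0 reads in the untreated pools.

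**Figure D2:**
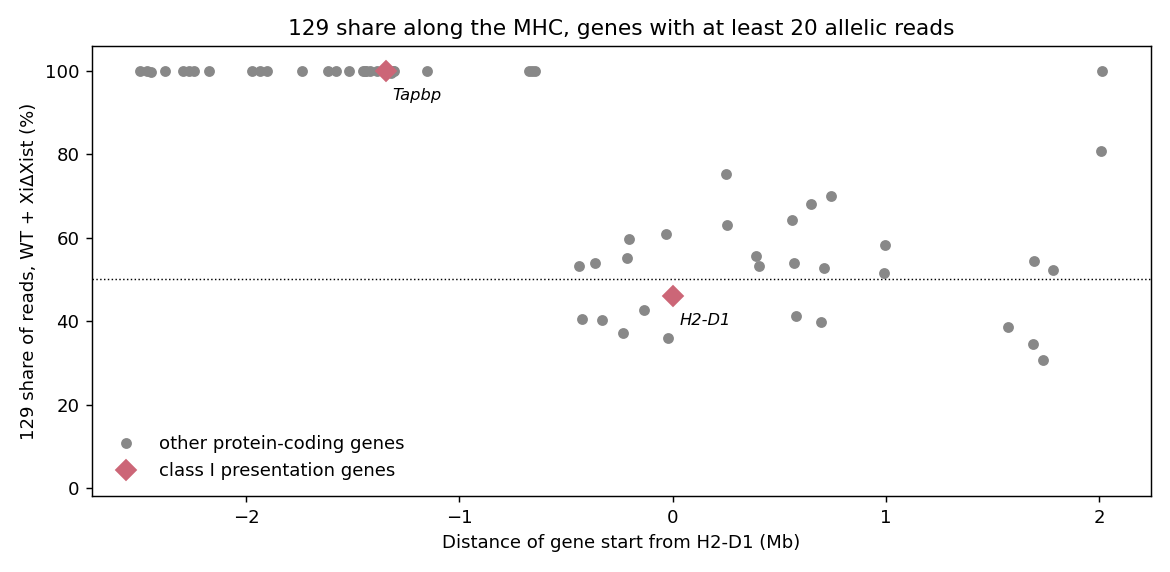
Share of reads from the 129 allele, WT and XiΔXist together, for protein-coding genes with at least 20 reads, by distance from H2-D1 in Mb; diamonds are class I presentation genes and the dotted line is an equal share. Genes before the gap between Ppt2 and Stk19 are at or near 100%, Tapbp among them, and H2-D1 lies among genes read from both alleles.

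Around Nlrc5 the 3 nearest genes on each side (Mt2, Mt1, Nup93, Cpne2, Fam192a and Rspry1) likewise had no CAST read in WT, and Rspry1 had 3452 129 reads. B2m differed: Ctdspl2, 134044 bases before it, had 1007 129 and 825 CAST reads in WT, Eif3j1 had 85 and 82, and Spg11, the nearest at 29300 bases, had 86 and 23. On its other side Sord had 159 and 8, Slc30a4 9855 and 299, and Bloc1s6 2034 and 22. In WT the 129 share was thus lower before B2m than after it. This order did not hold in shSCR, where Ctdspl2 had a 129 share of 85.0%, Eif3j1 77.1%, Spg11 86.8% and Sord 55% (11 and 9 reads). Over all autosomes, 3225 of 8862 genes with at least 50 reads in WT (36.4%) had a 129 share of 99% or more. Whether CAST reads were missing from the cells or failed to align was not tested.

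Between WT and XiΔXist, the H2-D1 balance shifted to the 129 allele. The gene had 81 129 and 157 CAST reads in WT and 198 and 171 in XiΔXist. Its 129 share rose from 34.0% (28.3 to 40.3) to 53.7% (48.6 to 58.7), by 19.6 percentage points (11.6 to 27.2; two-sided Fisher's exact test over 2 pools, adjusted p = 2.88e-05). The call required an adjusted p under 0.05 and a change of 3 points or more where both pools held at least 10 reads of the gene. By allele, 129 reads went from 3.33 to 6.99 CPM, a ratio of 2.098 (1.61 to 2.75), and CAST reads from 6.46 to 6.04 CPM, a ratio of 0.935 (0.748 to 1.17).

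H2-D1 was the 1 member called of 4 tested, against 18.3% of 11909 genes, and 32.3% of 6158 autosomal genes read at 10 to 90% from 129 in both pools. Such shifts were thus common between these clones. The other 3 members tested had a 129 share of 99% or more in both pools. In the stretch around H2-D1, 3 of 28 other genes were called, all with a rise: Ddx39b, Tubb5 and H2-M3, and the median change was 0.20 points. The 129 share rose by at least as much as that of H2-D1 in 2 of the 28. The summed reads of the 30 other genes of that stretch had a 129 share of 52.8% (52.0 to 53.5) in WT. In XiΔXist that share was 56.1% (55.4 to 56.9). Tubb5 held 15404 129 and 13118 CAST reads of these sums over both untreated pools. For B2m the change was 0.06 points (-0.02 to 0.15).

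H2-M3, a non-classical heavy chain that presents formylated peptides, had 206 129 and 84 CAST reads in WT and 392 and 57 in XiΔXist. Its 129 share rose from 71.0% to 87.3%, by 16.3 points (10.3 to 22.4; Fisher's exact test, adjusted p = 7.82e-07). Its CAST reads were 3.46 CPM in WT and 2.01 CPM in XiΔXist, a ratio of 0.582 (0.408 to 0.825). The higher share was not seen in shSCR, where H2-M3 had 14 129 and 10 CAST reads (58.3%). From XiΔXist to shSCR the change was -29.0 points (-48.7 to -11.4; Fisher's exact test, adjusted p = 0.00445). That pair also differs in transduction, read length and depth.

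**Figure D3:**
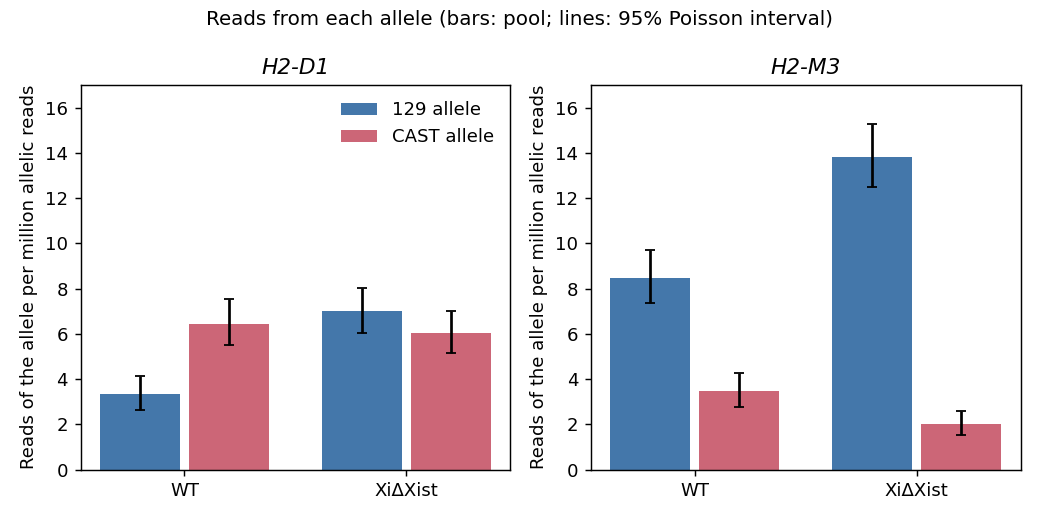
Reads of each allele, in CPM, for H2-D1 and H2-M3 in WT and XiΔXist; bars are pools and lines are exact 95% Poisson intervals. The 129 bar of H2-D1 is 3.33 in WT and 6.99 in XiΔXist, while its CAST bars are 6.46 and 6.04.

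In total level, B2m, H2-D1 and Tapbp differed less than 2-fold between WT and XiΔXist, and Nlrc5 was lower in XiΔXist by more than that without a pseudocount. Changes are given as log2 of CPM plus 1, which understates the change of low genes, and were called at 2-fold or more where the pools together held at least 50 reads of the gene. The 4 members that passed had a change of 0.51 (Tapbp), 0.38 (H2-D1), -0.02 (B2m) and -0.82 (Nlrc5), and 0 of 4 were called, against 9.27% of 10763 genes. The median of the members was 0.18 and that of all genes -0.11, and other scalings moved the latter up to 0.08. Without a pseudocount the ratio of XiΔXist to WT was 0.988 (0.968 to 1.01) for B2m, 1.33 (1.13 to 1.57) for H2-D1, 1.68 (1.14 to 2.49) for Tapbp and 0.385 (0.232 to 0.621) for Nlrc5. With a pseudocount of 0.25 CPM, Nlrc5 was called, at -1.17.

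Interferon-stimulated genes did change between the same pools. Of 22 listed, 10 passed the filter, 6 were called and all 6 rose: Rtp4, Ifit1, Ifih1, Mx2, Ifi27 and Gbp3. Over all 10763 genes, 3.07% rose and 6.21% fell. Ifit1, which binds foreign RNA, went from 218 to 1394 reads (8.97 to 49.2 CPM), a log2 change of 2.33. Ifih1, an RNA sensor, went from 156 to 760 reads (log2 change 1.91), and Rtp4 from 26 to 436 (2.99). Ifit2, the gene of the list with the most reads, had 166 and 154 CPM, and Irgm1 28.0 and 26.2. The 10 that passed had a median of 1.5. Of its 16 RefSeq promoters, 11 held the full or short interferon element, among them those of Ifit1 and Gbp3, and that of Ifih1 held neither. The promoter of Irgm1, which did not rise, held 2 full elements. Rtp4, Mx2 and Ifi27 had no promoter entry.

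In the rest of the pathway no gene was called. Among 17 other class I heavy chains 3 passed and 0 were called, with changes of 0.63 for Mr1, which presents vitamin metabolites, 0.38 for H2-M3 and 0.30 for the lipid-presenting Cd1d1. Of 13 other loading and processing genes 11 passed and 0 were called (median 0.01), among them the chaperones Canx (2128 and 2322 CPM) and Calr (287 and 281) and the peptidases Tpp2 and Lnpep. Of 14 standard proteasome subunits 13 passed and 0 were called (median -0.15). The same held for 11 of 13 class I regulators (median -0.33, Irf2 among them) and 9 of 13 interferon receptor and signalling genes (median -0.02). The latter ran from -0.64 for Ifngr1 to 0.79 for Irf9. Without a pseudocount Irf2, an interferon regulatory factor, had a ratio of 0.402 (0.231 to 0.680) and Psmb10, the remaining immunoproteasome subunit, one of 0.490 (0.284 to 0.829). All 8 class II genes had 0 reads in both pools.

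**Figure D4:**
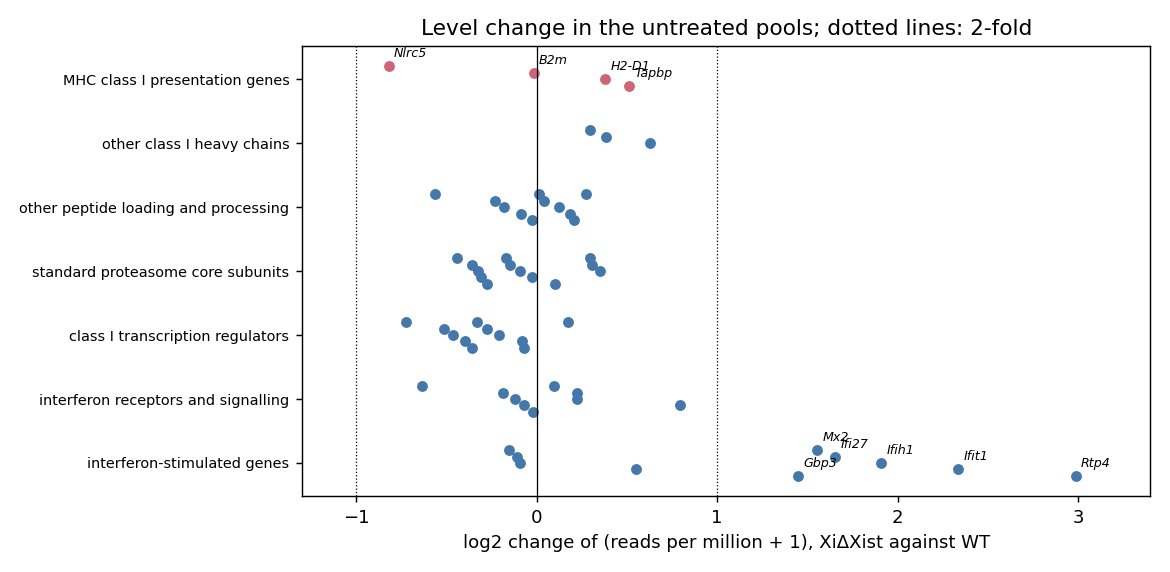
log2 change of CPM plus 1, XiΔXist against WT, for genes of each list that passed the filter; each point is a gene and dotted lines mark a 2-fold change. The 4 class I members lie between -0.82 and 0.51, and 6 interferon-stimulated genes lie beyond the upper line.

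Between shSCR and shYY1, 2 members passed the filter and 0 were called, against 2.43% of 8245 genes. The ratio of shYY1 to shSCR was 1.11 (0.992 to 1.25) for B2m and 1.13 (0.815 to 1.56) for Tapbp. In 129 share 0 of 2 members tested were called, against 1.19% of 10070 genes, and 1.88% of 4993 autosomal genes read from both alleles. Both members had a 129 share of 99% or more in both pools, unlike the latter genes, so the 0 says little. At 10 and 2 reads, H2-D1 was too shallow for the filter, and the ratio was 0.191 with a counting interval of 0.020 to 0.897.

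Psmb8 and Psmb9 had reads in shYY1 and 0 in shSCR. Set against the floor of 3 counts in the shSCR pool, the ratio was 1.91 for Psmb8 and 1.59 for Psmb9. These ratios rest on 6 and 5 reads and are no lower bounds. The exact counting interval of the ratio began at 1.13 for Psmb8 and at 0.876 for Psmb9, so that equal levels of Psmb9 were within it. Leukocyte markers were also higher in shYY1: the 12 together had 14 reads (5.85 CPM, 3.20 to 9.81) in shSCR and 52 (20.8 CPM, 15.5 to 27.2) in shYY1, and 7 of 12 had reads in each. Lyz2 had 2 and 23 reads and Csf1r 3 and 14, while Ptprc, the pan-leukocyte marker, had 1 and 0, and Itgam had 0 in both. Their part in the Psmb8 and Psmb9 reads was not tested. Among the other pathway lists, 1 heavy chain, 10 loading and processing genes, 13 proteasome subunits, 9 regulators, 9 interferon receptor and signalling genes and 3 interferon-stimulated genes passed the filter, and 0 were called in each. Below the filter, the regulator Rfx5 had 9 reads in shSCR and 34 in shYY1, a ratio of 3.61 (1.70 to 8.56). Irf7, a signalling gene, went the other way, with 12 and 0 reads. Of 8 class II genes, 2 had reads in shSCR and 4 in shYY1, with 6 and 8 reads in all.

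The last comparison set the control hairpin against untreated XiΔXist cells, in which transduction, read length and depth changed together and cannot be told apart. B2m fell by 1.57 and H2-D1 fell by 1.44 on the log2 scale, and Tapbp rose by 3.02, so 3 of 3 members tested were called. The background was 64.6% of 10444 genes (39.7% rose and 24.9% fell), so the count says little about the members. The median of all genes was 0.38, and -0.68 with TMM scaling, under which B2m was at -2.72, H2-D1 at -2.43 and Tapbp at 2.01. The list counts that follow stand against the same background. Of 10 interferon-stimulated genes that passed, 7 fell in shSCR (Rtp4, Ifi27, Ifit1, Gbp3, Mx2, Ifih1 and Ifit2) and 0 rose. Among the other heavy chains 1 of 3 fell (Cd1d1). Of 10 loading and processing genes 3 rose (Psme3, Psme1 and Npepps) and 4 fell (Canx, Tpp2, Lnpep and Erap1), and of 13 proteasome subunits 5 rose (Psmb2, Psma7, Psmb6, Psmb3 and Psmb1) and 2 fell (Psma3 and Psma1). Of 10 class I regulators 5 rose (Rela, Nfyc, Nfkb1, Nfya and Rfxap) and Creb1 fell, and of 10 receptor and signalling genes 6 rose (Tyk2, Jak1, Stat2, Ifngr2, Ifnar1 and Ifngr1) and Irf9 and Jak2 fell. In 129 share 0 of 3 members were called, against 20.8% of 9548 genes and 28% of 4705 autosomal genes read from both alleles. Of the members, 2 had a 129 share of 99% or more in both pools, and H2-D1 had 10 reads in shSCR, so the 0 says little.

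The level change in that pair moved with the GC content of the transcript. Over 10 bins of genes the median rose from -1.42 in the bin of lowest GC to 3.84 in the highest, whereas between WT and XiΔXist it stayed between -0.14 and -0.08. B2m, with 41.2% GC, was in a bin with a median of -1.10 (quartiles -1.91 and -0.13). Tapbp, with 57.1% GC, was in a bin with a median of 3.84 (2.60 and 4.77). Both values lay between the quartiles of their bins. H2-D1, with 55.9% GC, lay far below those of its bin (median 2.56, quartiles 1.31 and 3.71). The part of GC content in these changes was not tested.

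**Figure D5:**
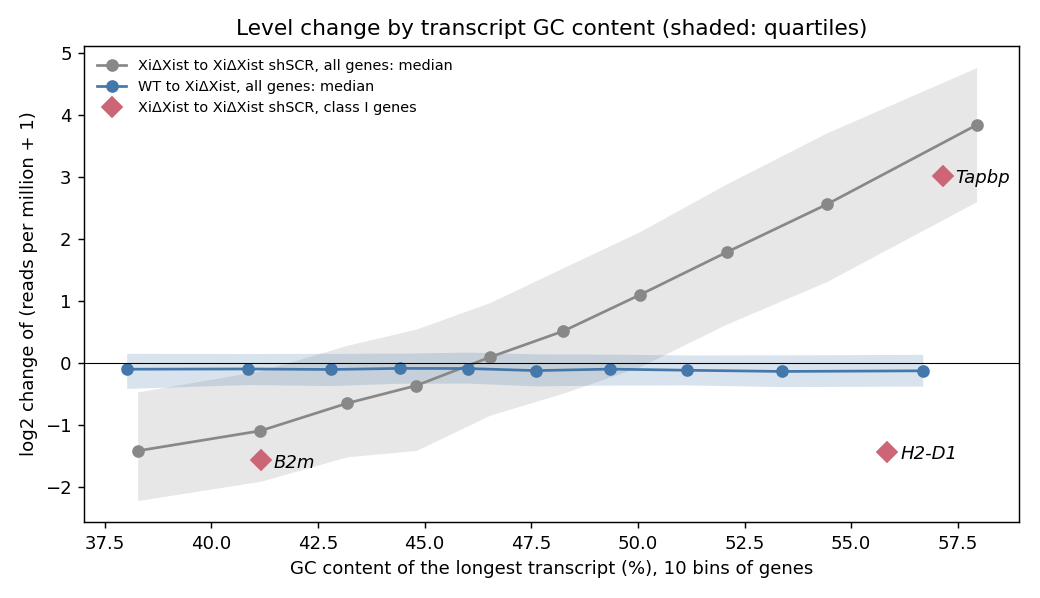
log2 change of CPM plus 1 against the GC content of the longest transcript; lines join the medians of 10 bins of genes, shading spans the quartiles, and diamonds are class I genes in XiΔXist shSCR against XiΔXist. B2m and Tapbp lie within the shading of their GC range, and H2-D1 lies below it at -1.44.

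B2m was the 1 member with at least 50 reads in every pool, so the genes most like the members were sought by its pattern. By the Euclidean distance of centred log2 levels over the 4 pools, among 4981 genes, the nearest were Lactb2 (distance 0.040), Mastl (0.059), Galnt11 (0.065), Mrpl50 (0.068) and Dnajc2 (0.075). Lactb2 had 188, 186, 59.7 and 67.9 CPM in WT, XiΔXist, shSCR and shYY1.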

How the data were processed

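RNA-seq counts of 8 tables were used, 1 per allele and group. The authors deposited raw counts of reads per gene, not normalized. By their methods, they pooled the replicates of a group, aligned them with TopHat to a mouse genome masked at positions that differ between 129S1/SvImJ and CAST/EiJ, kept confidently mapped reads, sorted these into alleles using SNPsplit, and summed them over the exons of each gene. The submitters' processing notes name featureCounts 1.6.3 and GRCm38. The annotation release is not given in the sources used here. Only reads over a strain difference are counted, so levels depend on the number of such positions.

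Symbols and positions came from GENCODE M21 (GRCm38). Of 46078 gene IDs, 45229 matched. CPM was computed over all allelic reads of a pool. Shares carry Wilson 95% intervals and shares of 0 also the limit of 3 counts, levels exact Poisson intervals, ratios exact intervals from the split of reads, and differences of shares Newcombe intervals. Shares were compared by two-sided Fisher's exact tests, Benjamini-Hochberg adjusted over every gene holding 10 or more reads in each pool. Levels were called at 2-fold on log2 of CPM plus 1, with at least 50 reads, and given no p-value. The test was also run on simulated counts, where it missed many of the changes set, and most of them between shSCR and shYY1. Copies were sought with blastn 2.17.0, on the longest transcript, and statistics used scipy 1.17.1 and edgeR 4.0.16 (TMM factors only, in R 4.3.3). All members were named, with the 4 genes with most reads of a list or those called as examples, and the 3 nearest genes with at least 50 reads on each side. The members and lists were chosen with earlier results of these data known, and the letters of the promoter motifs were set after the sequences had been seen. Alternatives were other read minimums, scalings, pseudocounts and single alleles.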

Additional observations from a re-analysis of the deposited data

How the results depend on the processing

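No paired analysis was possible because the replicates of each group were merged into 1 column, and for the same reason no replicate could be left out. H2-D1 remained the 1 member called for a share change between WT and XiΔXist under all 5 alternatives. Only the scaling of CAST reads moved its change, from 19.6 to 21.9 points. The other alternatives left that change as it was, so they say little about the call. The median change of genes within 5 Mb of H2-D1 was 0, since most of those genes were read from 129 only, so subtracting it changed nothing. Over all genes, the share calls between WT and XiΔXist were 2184, and 1303 at a change of at least 0.1 and 1349 after subtracting the median within 5 Mb. Between shSCR and shYY1 they were 120, and 194 with CAST reads scaled. With a pseudocount of 0.25 CPM, 1 member was called in level between WT and XiΔXist in place of 0, Nlrc5 at -1.17. Without a filter on counts, level calls between shSCR and shYY1 were 2384 in place of 200, and 4 members in place of 0. For XiΔXist against shSCR, 6 members were called without the filter in place of 3. With CAST reads alone it was 1 member, and 3514 genes in place of 6742. B2m between WT and XiΔXist ranged from -0.02 to 0.19 over the scalings of total reads, so its sign was not fixed. Depth limited H2-K1, Tap1, Tap2, Psmb8 and Psmb9, which had at most 8 reads in any pool.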
